A study of Mus musculus with 16 samples.

Results

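The 7 mature microRNAs (miRNAs) mmu-miR-137-3p, mmu-miR-138-5p, mmu-miR-138-1-3p, mmu-miR-138-2-3p, mmu-miR-153-3p, mmu-miR-153-5p and mmu-miR-218-5p (mmu for mouse, left out below) were followed across 16 small RNA libraries from mouse primary forebrain neuronal cultures. They were chosen by name as synaptic or neuronal miRNAs, not by their values, though with earlier results of these data known. They are 7 of the 1978 miRNA names in the deposited count table. All 7 had enough counts to be tested, among 483 tested names. The cultures were perinatal and every group received a lentivirus, including the controls. The shRNA group carried a short hairpin RNA, the shRNA_2bp group the same hairpin with 2 point mutations, the shRNA_5bp group that hairpin with 5 point mutations, and the Empty_Vector group a vector with no hairpin. Each group had 4 libraries. The hairpin's target, the position of its mutations, the promoter that drives it, the age of the cultures and the animals behind each library are not given in the sources used here. Nothing there says that the libraries of a group came from separate cultures, so the p-values measure the spread between these libraries, which may be technical. The subject of the series, by its title, is an effect of hairpins on miRNAs that does not depend on the target. An expressed hairpin shares the export and dicing steps of the natural miRNA precursors.

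A miRNA is cut from a hairpin precursor and can leave from either side of it, as the 5p or the 3p arm. One arm is usually the guide that Argonaute holds, and bases 2 to 8 of it, the seed, select target mRNAs. In mouse neurons miR-137 is known to act on presynaptic vesicle proteins. MiR-138 is a dendritic miRNA that limits spine size through Lypla1 in rat hippocampal neurons. MiR-153 targets transcripts of vesicle release such as Snap25, and miR-218, made from introns of the Slit2 and Slit3 guidance genes, targets their receptor Robo1 and is enriched in mouse motor neurons.

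The mature sequences come from RefSeq on GRCm38.p6, which held all 7 names, and are printed 5′ to 3′ with the seed in capitals, because the seed sets which targets each arm can reach.
miR-137-3p: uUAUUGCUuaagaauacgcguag
miR-138-5p: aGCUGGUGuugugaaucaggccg
miR-138-1-3p: cGGCUACUucacaacaccaggg
miR-138-2-3p: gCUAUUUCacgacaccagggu
miR-153-3p: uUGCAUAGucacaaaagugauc
miR-153-5p: gUCAUUUUugugacguugcagcu
miR-218-5p: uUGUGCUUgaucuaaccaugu
No 2 of these names share a seed. One other name in the table, miR-7002-3p, has the seed of miR-218-5p, and it had 0 counts in all libraries.

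All 7 lie on the plus strand. MiR-137-3p maps to chr3:118433901-118433923, in an exon of the processed transcript Gm26871. The Mir153 arms map to chr12:117250821-117250843 (5p) and chr12:117250860-117250881 (3p), in an intron of Ptprn2, a gene of dense-core vesicles, with the antisense gene Gm5441 on the other strand. MiR-218-5p comes from Mir218-1 at chr5:48223966-48223986 in an intron of Slit2 and from Mir218-2 at chr11:35616840-35616860 in an intron of Slit3. MiR-138-5p likewise comes from Mir138-1 at chr9:122682898-122682920 and from Mir138-2 at chr8:94324312-94324334. Each of these 5p arms is identical at its 2 loci, so its counts cannot be assigned to a locus. The miR-138 3p arms differ and do name their locus. They are miR-138-1-3p at chr9:122682936-122682957, in an exon of the pseudogene Gm47135, and miR-138-2-3p at chr8:94324359-94324379, in an exon of the long noncoding RNA C78859. Host genes are those of GENCODE M21 on GRCm38.

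The precursors of miR-138 and miR-153 are shown because their arms moved unequally. The capitals mark the 5p arm and then the 3p arm.
Mir138-1: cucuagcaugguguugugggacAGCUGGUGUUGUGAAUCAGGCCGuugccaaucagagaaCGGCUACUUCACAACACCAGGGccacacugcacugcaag
Mir138-2: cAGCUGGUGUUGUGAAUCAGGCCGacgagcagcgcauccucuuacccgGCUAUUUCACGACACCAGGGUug
Mir153: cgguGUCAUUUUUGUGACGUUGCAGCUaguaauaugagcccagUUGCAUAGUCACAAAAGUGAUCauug
Laid side by side without gaps, the miR-138 3p arms matched at 18 of 20 positions, with a longest shared run of 9 bases. How the authors shared out reads that match both arms is not given in the sources used here, so the split between these names carries that uncertainty.

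Library totals were 5.30 to 8.06 M counts with shRNA, 1.18 to 2.10 M with shRNA_2bp, 0.832 to 2.50 M with shRNA_5bp and 2.76 to 11.1 M with Empty_Vector. The shRNA_2bp and shRNA_5bp libraries were thus all shallower than every Empty_Vector library. The lowest count of any of the 7 was 14, for miR-153-3p in shRNA_5bp replicate 1, with an exact 95% interval of 8.09 to 24.8 counts per 1 M counts (CPM) of that library's unscaled total. These intervals cover counting error only, as PCR copies were counted without molecular identifiers. MiR-128-3p, the most abundant miRNA, averaged 331260 ± 22709 CPM with shRNA, 240800 ± 11203 CPM with shRNA_2bp, 243560 ± 26655 CPM with shRNA_5bp and 427180 ± 14823 CPM with Empty_Vector (SD, n = 4 each). Scaling by library size alone instead of the trimmed mean of M values (TMM) moved the median log2 fold change of all tested miRNAs up by 0.14, 0.18 and 0.24 for shRNA, shRNA_2bp and shRNA_5bp against Empty_Vector. After removal of that median, the fold changes of the 7 miRNAs differed by at most 0.00895 on the log2 scale between the 2 scalings. The fits differ only in the scaling factor of each library, so this agreement follows from the method and is no check on the 7.

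The marker sums below cover all names of each list, tested or not. Markers of neurons were present, with 6 of 6 listed names tested. Their summed level was 396930 to 450580 CPM with shRNA, 339500 to 369420 CPM with shRNA_2bp, 317270 to 373100 CPM with shRNA_5bp and 504440 to 540180 CPM with Empty_Vector, and miR-128-3p, one of them, made up most of it. Relative to Empty_Vector, 3 of the 6 were higher and 1 lower with shRNA (edgeR adjusted p below 0.05). With shRNA_2bp 4 were higher and 2 lower, and with shRNA_5bp 3 and 1. Over all tested miRNAs 19.7% were higher and 15.1% lower, 33.3% and 32.3%, and 31.5% and 26.7%. The median log2 fold changes of the 6 were 0.23, 0.37 and 0.16. The lower sums thus do not mean that the 6 fell alike. Astroglial markers, 5 of 7 tested, summed to 2178 to 2360 CPM with shRNA, 3734 to 4139 CPM with shRNA_2bp, 2168 to 2634 CPM with shRNA_5bp and 1930 to 2137 CPM with Empty_Vector. Vessel and fibroblast markers, 7 of 10 tested, summed to 687 to 787 CPM with shRNA, 1212 to 1460 CPM with shRNA_2bp, 1146 to 1373 CPM with shRNA_5bp and 726 to 826 CPM with Empty_Vector. The astroglial sums were thus highest with shRNA_2bp, above every other library. The vessel and fibroblast sums of shRNA_2bp and shRNA_5bp overlapped each other and lay wholly above those of Empty_Vector. MiR-143-3p stands in both lists, and miR-146a-5p among the astroglial and the microglial names. Of the microglial and leukocyte markers, 2 of 8 were tested. The sum over all 8 was 77.8 to 107 CPM with shRNA, 88.7 to 105 CPM with shRNA_2bp, 65.7 to 86.3 CPM with shRNA_5bp and 51.2 to 61.4 CPM with Empty_Vector, while miR-142a-3p, miR-223-3p and miR-511-3p were at 0 in all libraries. Oligodendrocyte markers (2 of 5 tested) summed to 106 to 176 CPM over all libraries with miR-219b-3p at 0, and erythroid markers (1 of 4 tested) to 178 to 246 CPM with both arms of miR-144 at 0. In RNA from whole cultures, fewer cells of a type and less of a miRNA per cell cannot be told apart. The part of these cell markers, and of library depth, in the results that follow was not tested beyond the values given beside them.

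MiR-218-5p dominated the 7 miRNAs in every group. CPM values were not divided by length, since a read covers a whole miRNA of 21 to 23 bases, and differences in ligation between sequences were not measured. MiR-218-5p made up 95.2% of the summed mean CPM of the 7 with shRNA, 96.2% with shRNA_2bp, 93.4% with shRNA_5bp and 96.2% with Empty_Vector, and ranked between 16 and 22 among all names in each library. With Empty_Vector the next in level were miR-138-5p at 166 ± 14.4 CPM and miR-137-3p at 151 ± 16 CPM, whose libraries overlapped. Then came miR-138-2-3p at 36.6 ± 2.67 CPM and miR-153-5p at 35.1 ± 3.46 CPM, which overlapped each other, and miR-153-3p at 14.8 ± 1.51 CPM and miR-138-1-3p at 12.0 ± 1.25 CPM, which also overlapped. The order was different with shRNA_2bp, where miR-137-3p at 174 ± 19.2 CPM stood above miR-138-5p at 107 ± 10.3 CPM in every library, and miR-138-2-3p at 12.0 ± 1.37 CPM was the lowest by its mean, overlapping miR-138-1-3p at 14.6 ± 2.70 CPM (SD, n = 4).

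**Figure D1:**
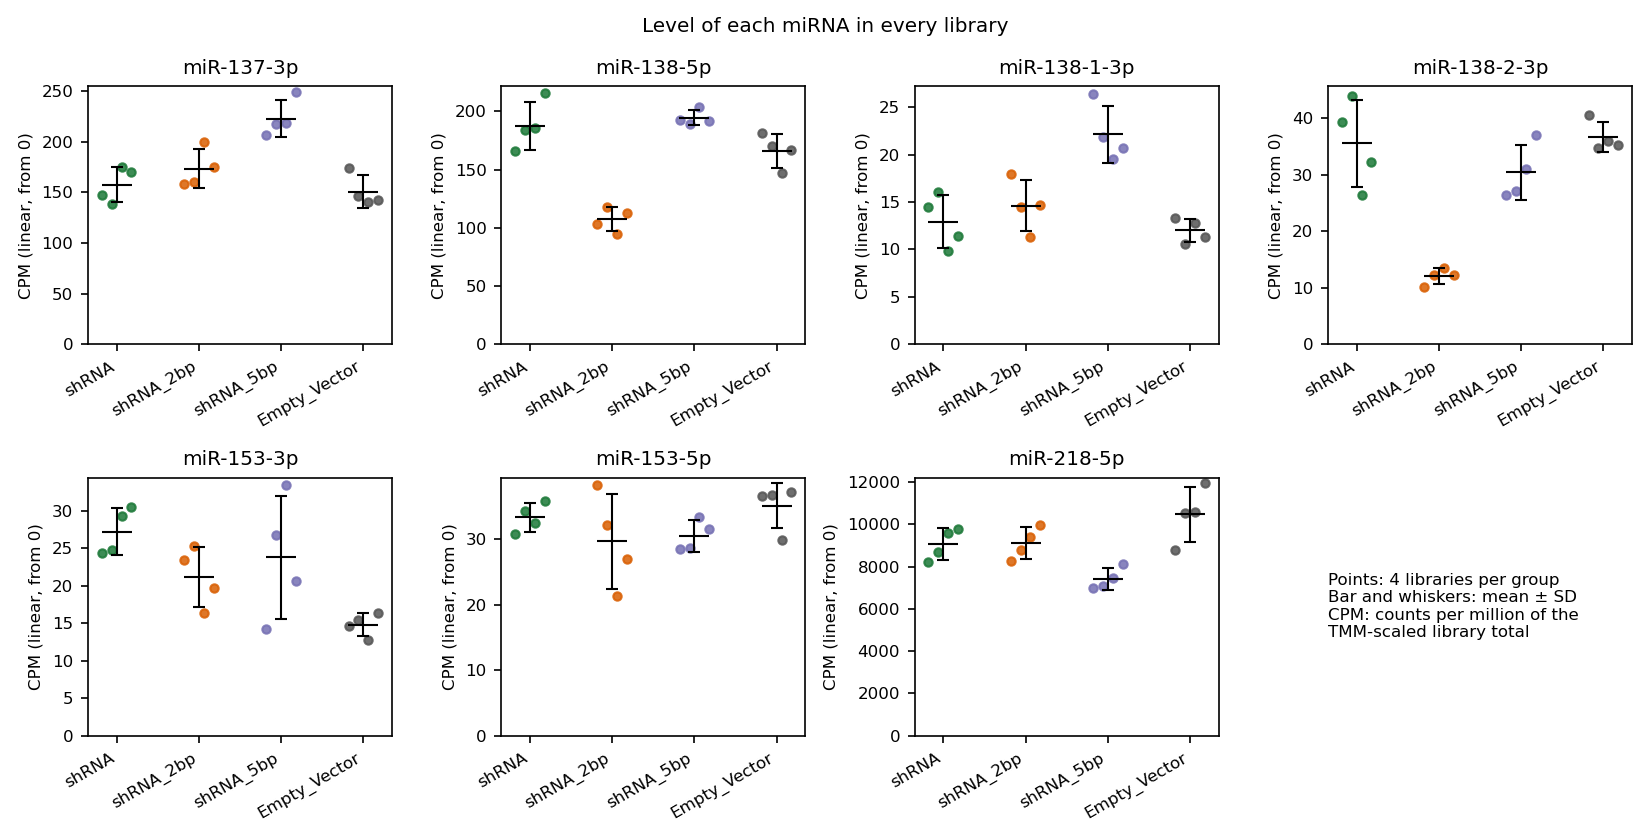
Level of each of the 7 miRNAs in every library, in CPM on linear axes that start at 0, with points for libraries and bars for the mean ± SD of 4 libraries per group. MiR-138-5p and miR-138-2-3p sit lowest in the shRNA_2bp libraries, miR-137-3p and miR-138-1-3p highest in the shRNA_5bp libraries, and miR-153-3p lowest on average with Empty_Vector.

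The hairpins moved only partly the same miRNAs among the 7. A miRNA is said to have risen or fallen where edgeR's quasi-likelihood test over all 483 names gave an adjusted p below 0.05. With shRNA, 2 of 7 changed relative to Empty_Vector (1 rose and 1 fell), against a background of 34.8% of all tested miRNAs (19.7% higher, 15.1% lower), and 1 of 7 had no overlap between the libraries, against 32.9%. These were miR-153-3p, which rose, and miR-218-5p, which fell, and each changed in the same direction with shRNA_2bp and with shRNA_5bp. Of these calls, only that of miR-218-5p with shRNA_5bp was made under every alternative setting described below. With shRNA_2bp, 4 of 7 changed relative to Empty_Vector (1 rose, 3 fell), against a background of 65.6% (33.3% higher, 32.3% lower), and 2 of 7 did not overlap, against 59.2%. With shRNA_5bp, 5 of 7 changed relative to Empty_Vector (4 rose, 1 fell), against 58.2% (31.5% higher, 26.7% lower), and 4 of 7 did not overlap, against 50.3%. Between hairpins, 2 of 7 changed with shRNA_2bp relative to shRNA (both fell), against a background of 64.6% (31.1% higher, 33.5% lower), with 2 of 7 not overlapping, against 58.4%. With shRNA_5bp relative to shRNA, 3 of 7 changed (2 rose, 1 fell), against 53.0% (28.4% higher, 24.6% lower), and the same number did not overlap, against 48.7%. With shRNA_5bp relative to shRNA_2bp, 5 of 7 changed (4 rose, 1 fell), against 59.6% (36.9% higher, 22.8% lower), with 5 of 7 not overlapping, against 53.0%. Read against these backgrounds, the shares are not a result about the 7 as a set.

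The median log2 fold change of the 7 was 0.07 for shRNA, -0.20 for shRNA_2bp and 0.22 for shRNA_5bp relative to Empty_Vector, beside 0.04, 0.01 and 0.06 for all tested miRNAs. Between hairpins it was -0.15 for shRNA_2bp and -0.14 for shRNA_5bp relative to shRNA, beside -0.01 and 0.00, and 0.37 for shRNA_5bp relative to shRNA_2bp, beside 0.16. The comparisons with Empty_Vector share those 4 control libraries. Of the 21 changes called over the 6 comparisons, 10 were called under each of the 24 alternative settings tried.

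**Figure D2:**
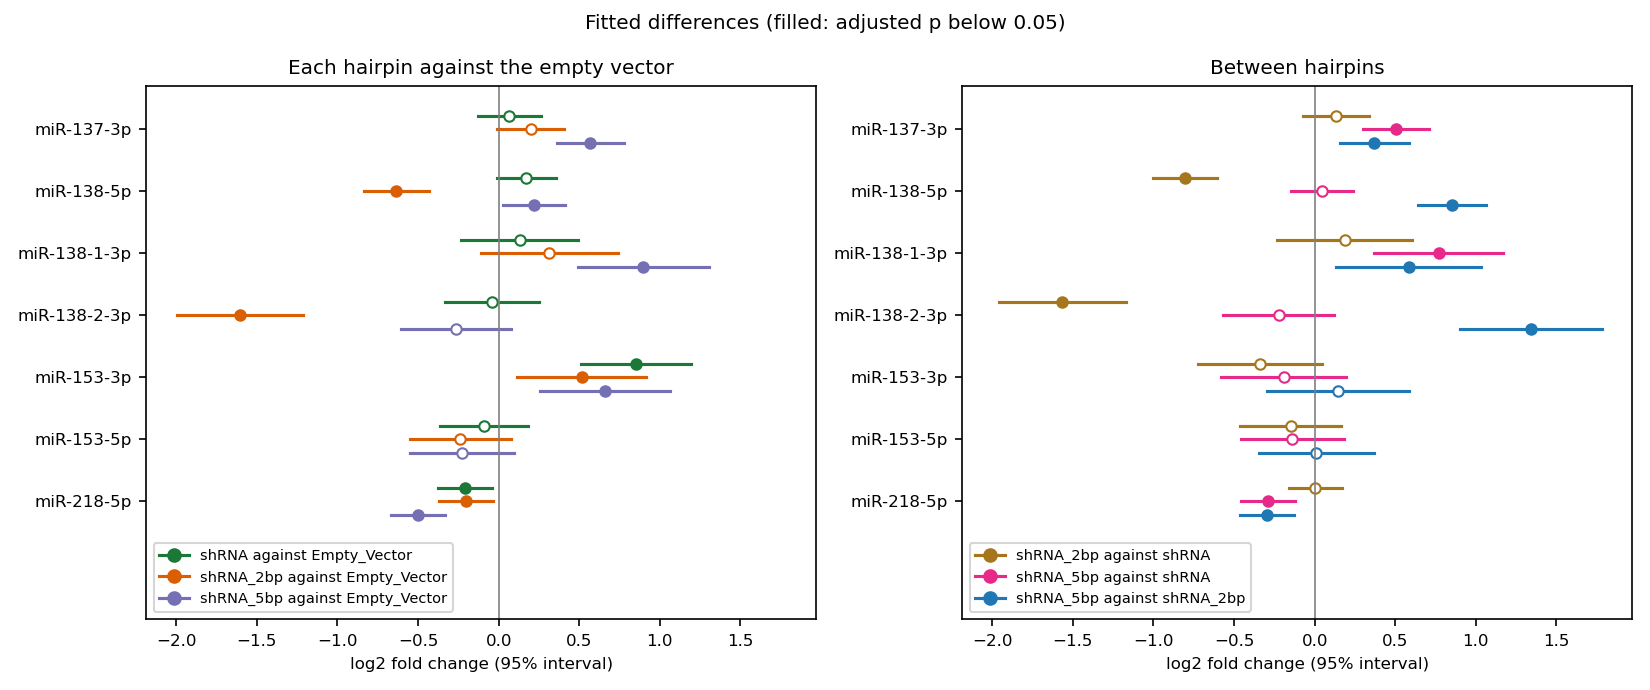
Fitted log2 fold changes of the 7 miRNAs with 95% intervals, each hairpin group against Empty_Vector on the left and hairpin groups against each other on the right, with filled points for adjusted p below 0.05. MiR-138-2-3p with shRNA_2bp lies farthest from 0, at -1.60 against Empty_Vector, while miR-153-5p has no filled point.

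The largest fold change among the 7 was in miR-138, and it differed between arms. MiR-138-2-3p, which only the chromosome 8 precursor yields, fell with shRNA_2bp to about 0.329 times its Empty_Vector level. Its libraries held 10.2, 12.2, 13.5 and 12.3 CPM with shRNA_2bp, against 40.6, 34.8, 35.9 and 35.3 CPM with Empty_Vector. Every shRNA_2bp library lay far below every Empty_Vector library. MiR-138-2-3p thus had a log2 fold change of -1.60 ± 0.192 (SE) with an edgeR adjusted p of 2.25e-08, and with counts thinned to the depth of the shallowest library it was -1.62. Thinning was done as a single random draw, so this and all later thinned values carry the noise of that draw as well as the lower depth.

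The differences of the other hairpin groups from Empty_Vector were smaller and did not pass the test. MiR-138-2-3p had 39.4, 44.0, 26.5 and 32.3 CPM with shRNA, and 26.4, 27.1, 31.1 and 37.1 CPM with shRNA_5bp, overlapping Empty_Vector in both. The log2 fold change relative to Empty_Vector was -0.04 with shRNA (95% interval -0.33 to 0.25, edgeR adjusted p = 0.868) and -0.26 with shRNA_5bp (95% interval -0.61 to 0.08, adjusted p = 0.180). The shRNA_5bp value did pass with no filter on low counts (-0.50, edgeR adjusted p = 0.0278) and without shRNA_5bp replicate 4 (-0.47, adjusted p = 0.0315), and was -0.10 with thinned counts (adjusted p = 0.688). The median of all tested miRNAs was -0.28 with no filter and -0.04 without that replicate, against 0.06 in the main fit. Tested directly, miR-138-2-3p fell with shRNA_2bp relative to shRNA by 1.56 ± 0.191 on the log2 scale (edgeR adjusted p = 3.45e-08) and was higher with shRNA_5bp than with shRNA_2bp by 1.34 ± 0.214 (adjusted p = 4.47e-06).

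MiR-138-5p, the guide arm that both precursors yield, fell with shRNA_2bp as well, by less. Its libraries held 104, 118, 94.4 and 113 CPM with shRNA_2bp, against 181, 170, 147 and 166 CPM with Empty_Vector. The groups did not overlap, and every shRNA_2bp library was the lower. The log2 fold change was -0.63 ± 0.0978 (edgeR adjusted p = 2.00e-06), and it was -0.83 with counts thinned to equal depth. With shRNA, at 166, 184, 186 and 216 CPM, it was 0.17 (95% interval -0.01 to 0.35, adjusted p = 0.140). That value passed the test with library-size scaling (0.32, adjusted p = 0.0127) and without shRNA replicate 1 (0.29, adjusted p = 0.0162) or 2 (0.26, adjusted p = 0.0447), and was -0.09 with thinned counts (adjusted p = 0.682).

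With shRNA_5bp the libraries of miR-138-5p held 193, 189, 204 and 192 CPM, all above the Empty_Vector libraries. The rise was small, 0.22 ± 0.0945 on the log2 scale, and stood at the threshold (edgeR adjusted p = 0.0489). With library-size scaling it was 0.46 (adjusted p = 0.000467), with thinned counts 0.08 (adjusted p = 0.544) and with no filter on low counts -0.01 (adjusted p = 0.995). The median of all tested miRNAs was 0.30 with library-size scaling and -0.28 with no filter, against 0.06 in the main fit. The rise was called under 6 of 24 alternative settings, and leaving out 1 library ended the call in 12 of 16 cases. These were Empty_Vector replicates 2, 3 and 4, shRNA replicates 1, 2 and 3, shRNA_2bp replicates 3 and 4, and all 4 of shRNA_5bp. The value was 0.14 and 0.09 without Empty_Vector replicate 2 or 3, 0.13, 0.14 and 0.13 without shRNA replicate 1, 2 or 3, and 0.14 without shRNA_5bp replicate 4. Without each of these libraries the median of all tested miRNAs was -0.04 to -0.02, against 0.06 in the main fit. Between hairpins the differences were larger. MiR-138-5p fell by 0.81 ± 0.0974 with shRNA_2bp relative to shRNA (adjusted p = 2.84e-08) and was higher by 0.85 ± 0.103 with shRNA_5bp relative to shRNA_2bp (adjusted p = 3.26e-08).

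MiR-138-1-3p, which only the chromosome 9 precursor yields, did not follow its sister arm. With shRNA_2bp it had 18, 14.5, 11.4 and 14.7 CPM, against 13.3, 10.6, 12.8 and 11.3 CPM with Empty_Vector. The groups overlapped, and the log2 fold change was 0.32 (95% interval -0.11 to 0.74, edgeR adjusted p = 0.185), reaching 0.50 (adjusted p = 0.0350) with library-size scaling. With shRNA, at 14.5, 16, 9.82 and 11.4 CPM, it was 0.13 (95% interval -0.23 to 0.49, adjusted p = 0.627).

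With shRNA_5bp, miR-138-1-3p rose. Its libraries held 26.4, 21.9, 19.6 and 20.7 CPM, all above the Empty_Vector libraries, for a log2 fold change of 0.90 ± 0.198 (edgeR adjusted p = 0.000289). The counts behind these values were low, 26, 59, 17 and 34 with shRNA_5bp and 59, 102, 32 and 117 with Empty_Vector. It also rose with shRNA_5bp relative to shRNA, by 0.77 ± 0.195 (adjusted p = 0.00143), a call lost with no filter on low counts (adjusted p = 0.0689) and a value of 1.16 with thinned counts. Relative to shRNA_2bp the rise was 0.58 ± 0.220 (adjusted p = 0.0244). That call was lost in 12 of 24 alternative settings, with adjusted p up to 0.259, including DESeq2, no filter, only these 2 groups in the fit, and leaving out Empty_Vector replicate 2 or 3, shRNA replicate 1, 2 or 3, shRNA_2bp replicate 2 or 3, or shRNA_5bp replicate 1 or 4.

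Within a library the scaling cancels, and there the split of the miR-138 3p arms set the groups apart. MiR-138-2-3p made up 36.2, 45.8, 54.3 and 45.5% of both 3p arms with shRNA_2bp, against 75.3, 76.6, 73.8 and 75.7% with Empty_Vector. It made up 50, 55.3, 61.4 and 64.2% with shRNA_5bp and 73.1, 73.3, 72.9 and 73.9% with shRNA. The mutated hairpins thus lay below the shRNA and Empty_Vector libraries without overlap. The shares rest on 33 to 59 counts in a shRNA_2bp library and 44 to 132 in a shRNA_5bp library, and the exact 95% interval of the lowest, 36.2%, was 22.7 to 51.5%.

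As a log2 ratio of miR-138-1-3p to miR-138-2-3p, the difference from Empty_Vector was 1.87 with shRNA_2bp and 1.16 with shRNA_5bp. Each had an exact 2-sided permutation p of 0.0286, the smallest that 4 libraries against 4 allow, and an adjusted p of 0.0571 over the 30 ratio tests. With shRNA it was 0.15 (exact permutation p = 0.0571). No ratio test of the 30 passed after adjustment. Limma over 122 arm pairs, added after the counts were seen, gave adjusted p-values of 1.33e-07 for shRNA_2bp and 0.000193 for shRNA_5bp, where 39.3% and 40.2% of arm pairs passed, and 0.781 for shRNA, where 13.1% passed. Relative to shRNA the difference was 1.72 with shRNA_2bp (limma adjusted p = 4.74e-07, with 42.6% of arm pairs passing) and 1.01 with shRNA_5bp (adjusted p = 0.00244, 29.5% passing), and for shRNA_5bp relative to shRNA_2bp it was -0.71 (adjusted p = 0.0138, 44.3% passing).

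Set against the shared 5p arm, the 3p arms of the 2 loci stood on opposite sides of Empty_Vector with both mutated hairpins. MiR-138-5p pools both loci, and the difference between these 2 ratios is the 3p split given above, so this is not a separate result. With shRNA_2bp, miR-138-1-3p itself did not pass (0.32, edgeR adjusted p = 0.185), while miR-138-5p fell by 0.63. With shRNA_5bp, miR-138-2-3p itself did not pass (-0.26, edgeR adjusted p = 0.180). The log2 ratio of miR-138-1-3p to miR-138-5p was higher than with Empty_Vector by 0.93 with shRNA_2bp (limma adjusted p = 0.00160) and by 0.66 with shRNA_5bp (adjusted p = 0.0211). That of miR-138-2-3p to miR-138-5p differed by -0.94 with shRNA_2bp (limma adjusted p = 0.000111) and by -0.50 with shRNA_5bp (adjusted p = 0.0356). Each of these 4 differences had an exact permutation p of 0.0286 and an adjusted p of 0.0571. With thinned counts the differences were 1.37 and 1.07 for miR-138-1-3p (exact permutation adjusted p = 0.0857 each) and -0.75 and -0.23 for miR-138-2-3p (adjusted p = 0.0857 and 0.490), with shRNA_2bp given before shRNA_5bp. With shRNA the ratios to miR-138-5p differed by -0.09 and -0.24 (limma adjusted p = 0.906 and 0.467).

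**Figure D3:**
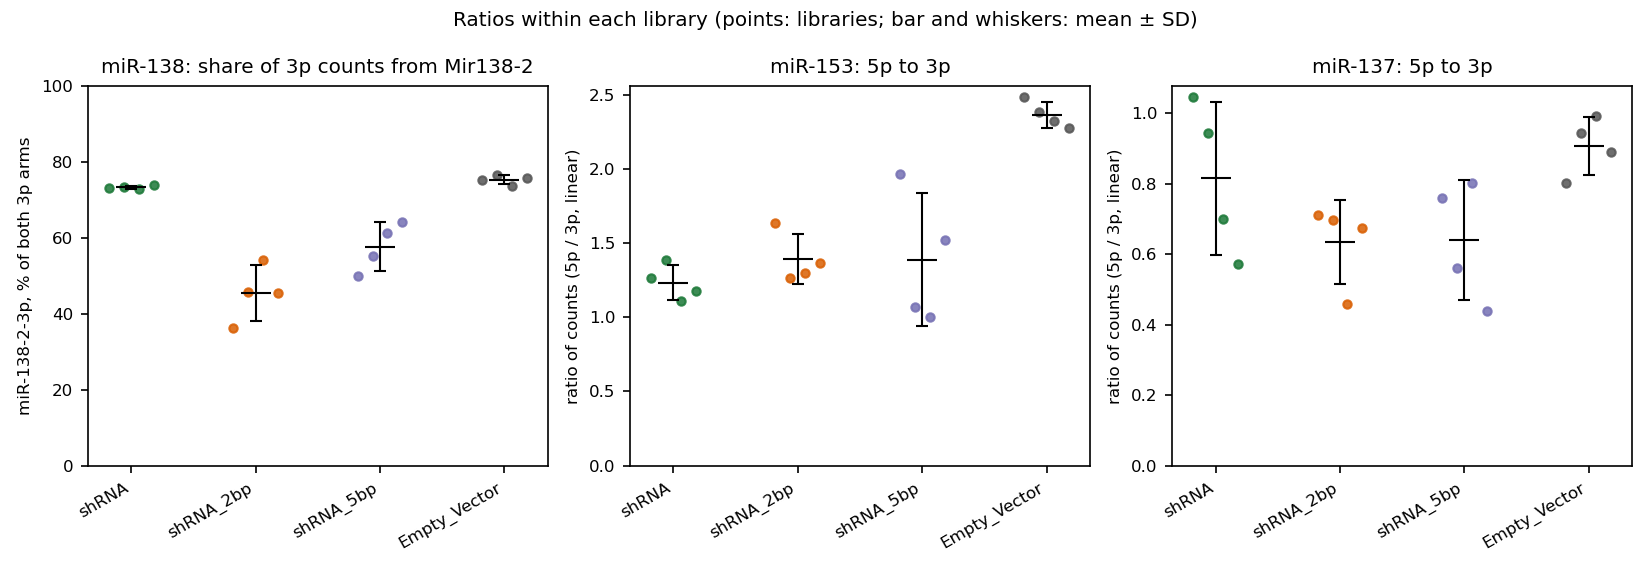
Ratios within each library on linear axes that start at 0, with points for libraries and bars for the mean ± SD of 4 libraries per group. MiR-138-2-3p makes up 36.2 to 54.3% of both miR-138 3p arms with shRNA_2bp, against 73.8 to 76.6% with Empty_Vector, and the miR-153 5p to 3p ratio lies at or below 1.97 in every hairpin library, against at least 2.27 with Empty_Vector.

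MiR-153 showed a rise of 1 arm with all 3 hairpins. MiR-153-3p, the arm known to target Snap25, held 24.4, 24.8, 29.3 and 30.4 CPM with shRNA, against 14.7, 15.4, 12.8 and 16.3 CPM with Empty_Vector. All shRNA libraries lay above all Empty_Vector libraries. The fitted log2 fold change was 0.85 ± 0.167 (edgeR adjusted p = 0.000173), and with counts thinned to the shallowest library it was 0.73 and no longer passed (adjusted p = 0.0758).

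With the mutated hairpins miR-153-3p rose too, with overlap. The shRNA_2bp libraries held 23.4, 25.3, 16.3 and 19.6 CPM, of which the third lay below the highest Empty_Vector library, for a log2 fold change of 0.52 ± 0.196 (edgeR adjusted p = 0.0237). The shRNA_5bp libraries held 14.2, 26.7, 33.4 and 20.7 CPM, of which the first lay within the Empty_Vector range, for 0.66 ± 0.197 (adjusted p = 0.00496). Both calls were lost with thinned counts (adjusted p = 0.169 and 0.0736) and with no filter on low counts (0.40 and 0.43, adjusted p = 0.165 and 0.143). With no filter the medians of all tested miRNAs were -0.18 and -0.28, against 0.01 and 0.06 in the main fit. The shRNA_2bp call was also lost without shRNA_2bp replicate 1, 2 or 4 (adjusted p = 0.0628, 0.108 and 0.0546), and the shRNA_5bp call without shRNA_5bp replicate 2 (adjusted p = 0.0599).

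Differences of miR-153-3p between hairpins did not pass the test. The fitted log2 difference was -0.34 with shRNA_2bp relative to shRNA (95% interval -0.72 to 0.05), -0.19 with shRNA_5bp relative to shRNA (95% interval -0.58 to 0.19) and 0.15 with shRNA_5bp relative to shRNA_2bp (95% interval -0.29 to 0.58).

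MiR-153-5p, the opposite arm of the same precursor, did not pass the test in any of the 6 comparisons with edgeR, nor at an unadjusted p below 0.05. With no filter on low counts it did pass with shRNA_5bp relative to Empty_Vector (-0.46, edgeR adjusted p = 0.0420). The median of all tested miRNAs was then -0.28, against 0.06 in the main fit. MiR-153-5p held 30.8, 34.3, 32.4 and 35.9 CPM with shRNA, 38.3, 32.1, 21.3 and 27.0 CPM with shRNA_2bp, 28.4, 28.6, 33.4 and 31.6 CPM with shRNA_5bp, and 36.5, 36.7, 29.9 and 37.2 CPM with Empty_Vector. The groups overlapped. The log2 fold changes relative to Empty_Vector were -0.09, -0.24 and -0.23, with 95% intervals of -0.36 to 0.18, -0.55 to 0.08 and -0.55 to 0.09 for shRNA, shRNA_2bp and shRNA_5bp.

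The ratio of the arms separated every hairpin library from every Empty_Vector library. MiR-153-5p to miR-153-3p was 1.26, 1.38, 1.11 and 1.18 with shRNA, 1.63, 1.27, 1.30 and 1.37 with shRNA_2bp, 1.97, 1.07, 1.0 and 1.52 with shRNA_5bp, and 2.48, 2.38, 2.32 and 2.27 with Empty_Vector. By counts, miR-153-5p was thus not the scarcer arm in any library. The log2 ratio differed from Empty_Vector by -0.94, -0.77 and -0.82 for shRNA, shRNA_2bp and shRNA_5bp. Each exact permutation p was 0.0286 and each adjusted p 0.0571, while limma over the arm pairs gave adjusted p-values of 0.000960, 0.00198 and 0.00120. Between hairpins the differences in this ratio were 0.17 for shRNA_2bp and 0.12 for shRNA_5bp relative to shRNA and -0.05 for shRNA_5bp relative to shRNA_2bp, with limma 95% intervals of -0.23 to 0.57, -0.28 to 0.52 and -0.45 to 0.35.

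MiR-137-3p, the guide arm of a miRNA of the presynaptic terminal, rose with the hairpin carrying 5 mutations. The shRNA_5bp libraries held 206, 218, 219 and 249 CPM, against 174, 146, 140 and 142 CPM with Empty_Vector. All shRNA_5bp libraries lay above all Empty_Vector libraries. MiR-137-3p had a log2 fold change of 0.57 ± 0.101 (edgeR adjusted p = 1.90e-05), 0.34 (adjusted p = 0.00484) with no filter on low counts and 0.64 with thinned counts.

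MiR-137-3p was also higher with shRNA_5bp than with the other hairpins. With shRNA it held 147, 139, 175 and 171 CPM, and the log2 fold change of shRNA_5bp relative to shRNA was 0.50 ± 0.10 (edgeR adjusted p = 0.000105). The call held in each alternative, but the value was 0.32 without shRNA replicate 1, 0.29 without shRNA replicate 2 and 0.29 without shRNA_5bp replicate 4. The median of all tested miRNAs moved as well, from -0.002 to between -0.16 and -0.15 without each of those libraries. With shRNA_2bp miR-137-3p held 159, 160, 200 and 175 CPM, and shRNA_5bp lay above by 0.37 ± 0.105 (adjusted p = 0.00347). This call was lost without Empty_Vector replicate 2 or 3, shRNA replicate 3 or shRNA_5bp replicate 4 (0.25, 0.25, 0.24 and 0.18, adjusted p = 0.0530, 0.0510, 0.0523 and 0.196), with no filter (0.24) and with only these 2 groups in the fit (0.21). Without each of those libraries the median of all tested miRNAs was 0.01 to 0.03, against 0.16 in the main fit.

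Relative to Empty_Vector, the log2 fold change of miR-137-3p was 0.07 with shRNA (95% interval -0.13 to 0.26, edgeR adjusted p = 0.657) and 0.20 with shRNA_2bp (95% interval -0.01 to 0.41, adjusted p = 0.0861). The second passed with library-size scaling (0.38, adjusted p = 0.00374) and on leaving out any of 6 single libraries, which were Empty_Vector replicate 1, shRNA replicates 1, 2 and 3, shRNA_2bp replicate 2 and shRNA_5bp replicate 4. It was 0.29 without Empty_Vector replicate 1 (adjusted p = 0.0183), and 0.06 to 0.29 over all 16 libraries left out in turn. The opposite arm, miR-137-5p, held 154, 131, 123 and 97.5 CPM with shRNA, 113, 111, 91.6 and 118 CPM with shRNA_2bp, 156, 122, 175 and 109 CPM with shRNA_5bp, and 140, 138, 139 and 127 CPM with Empty_Vector. Only the shRNA_2bp libraries stood apart from Empty_Vector, below it, with a fall of 0.32 ± 0.135 on the log2 scale (edgeR adjusted p = 0.0382) that did not pass with library-size scaling (-0.14, adjusted p = 0.337), with DESeq2 (-0.31, adjusted p = 0.0561) or with thinned counts (-0.21, adjusted p = 0.287). The call was also lost on leaving out 9 of the 16 libraries, which were Empty_Vector replicates 1, 2 and 3, shRNA replicates 2 and 3, shRNA_2bp replicates 1, 2 and 3, and shRNA_5bp replicate 4 (adjusted p = 0.0503 to 0.0989).

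The 5p to 3p ratio of miR-137, added after the counts were seen, was 1.05, 0.942, 0.701 and 0.572 with shRNA, 0.71, 0.695, 0.458 and 0.674 with shRNA_2bp, 0.759, 0.560, 0.801 and 0.437 with shRNA_5bp, and 0.801, 0.944, 0.991 and 0.890 with Empty_Vector. The shRNA libraries spread over both sides of Empty_Vector. The log2 ratio differed from Empty_Vector by -0.53 with shRNA_2bp and -0.54 with shRNA_5bp (exact permutation p = 0.0286 each, adjusted p = 0.0571, limma adjusted p = 0.0495 and 0.0447), and by -0.19 with shRNA (limma adjusted p = 0.638).

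MiR-218-5p fell most with shRNA_5bp. Its libraries held 7007, 7063, 7486 and 8108 CPM with shRNA_5bp, against 8804, 10540.0, 10577 and 11967 CPM with Empty_Vector. No shRNA_5bp library reached the lowest Empty_Vector library. The log2 fold change was -0.50 ± 0.0807 (edgeR adjusted p = 1.57e-05), and with library-size scaling it was -0.26 (adjusted p = 0.0404). Relative to the median of all tested miRNAs it was -0.56 under both scalings, where removing the median takes out the difference in scaling by construction.

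The other hairpin groups held smaller differences of miR-218-5p from Empty_Vector, at the edge of the test. The shRNA libraries held 8220, 8702, 9586 and 9779 CPM and the shRNA_2bp libraries 8246, 8791, 9403 and 9982 CPM. Both groups overlapped Empty_Vector. The fitted log2 fold change was -0.21 ± 0.0802 with shRNA (edgeR adjusted p = 0.049964) and -0.20 ± 0.0804 with shRNA_2bp (adjusted p = 0.0335).

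Neither of these small falls was stable. With library-size scaling they were -0.06 (adjusted p = 0.657) and -0.02 (adjusted p = 0.862). The shRNA call was lost on leaving out 12 of the 16 libraries, which were Empty_Vector replicates 2, 3 and 4, shRNA replicates 1 to 4, shRNA_2bp replicates 1 and 2, and shRNA_5bp replicates 1, 3 and 4, with values from -0.24 to -0.10 (-0.14 without Empty_Vector replicate 3, -0.10 without shRNA replicate 1 and -0.12 without shRNA replicate 2). The shRNA_2bp call was lost on leaving out 9 of the 16, which were Empty_Vector replicates 2 and 3, shRNA replicates 1 to 4, shRNA_2bp replicates 1 and 2, and shRNA_5bp replicate 4, and also with DESeq2 (adjusted p = 0.0622) and with only the 2 groups in the fit (adjusted p = 0.0888). Without shRNA_2bp replicate 4 it was -0.32.

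Between hairpins, miR-218-5p fell by 0.29 ± 0.0806 on the log2 scale with shRNA_5bp relative to shRNA (edgeR adjusted p = 0.00431) and by 0.30 ± 0.0808 relative to shRNA_2bp (adjusted p = 0.00336). Neither call held with library-size scaling (-0.19 and -0.23, adjusted p = 0.128 and 0.0633). Several libraries moved the value itself. Relative to shRNA it was -0.44 without Empty_Vector replicate 2 or 3, -0.49 without shRNA replicate 1, -0.47 without shRNA replicate 2 and -0.49 without shRNA_5bp replicate 4, and relative to shRNA_2bp it was -0.48 without shRNA_5bp replicate 4. The median of all tested miRNAs moved with it, to between -0.16 and -0.15 for shRNA_5bp relative to shRNA without each of those 5 libraries. The difference between shRNA_2bp and shRNA was 0.01 (95% interval -0.16 to 0.17).

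The 3p arms of miR-218, which would tell its loci apart, were too scarce to test. MiR-218-1-3p had 5, 12, 4 and 5 counts with shRNA, 3, 2, 1 and 1 with shRNA_2bp, 0, 4, 0 and 1 with shRNA_5bp, and 1, 2, 2 and 5 with Empty_Vector. MiR-218-2-3p had 4, 5, 3 and 9 counts with shRNA, 0 in each shRNA_2bp library, 1, 1, 0 and 0 with shRNA_5bp, and 1, 3, 0 and 9 with Empty_Vector. The shRNA_2bp counts of 0 allow up to 1.83, 1.43, 2.13 and 2.55 CPM of the 4 unscaled library totals (3 counts each). Differences between groups were not tested for these arms.

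Among the other synaptic and neuronal miRNAs, of which miR-219a-5p and miR-338-3p are also listed oligodendrocyte markers, 33 of 34 listed names were tested. Relative to Empty_Vector, 16 rose and 5 fell with shRNA, 11 rose and 16 fell with shRNA_2bp, and 16 rose and 5 fell with shRNA_5bp, with median log2 fold changes of 0.20, -0.12 and 0.29. The background was 19.7% higher and 15.1% lower, 33.3% and 32.3%, and 31.5% and 26.7% of all tested miRNAs. The most abundant of them, miR-128-3p, fell with shRNA, shRNA_2bp and shRNA_5bp by 0.37, 0.83 and 0.81 on the log2 scale (edgeR adjusted p = 4.84e-05, 4.83e-12 and 1.42e-11). The next, the neurogenic miR-9-5p, rose by 0.42 ± 0.0468 with shRNA_2bp (adjusted p = 5.31e-09) and by 0.20 ± 0.0467 with shRNA_5bp (adjusted p = 0.000427), and its log2 fold change with shRNA was -0.01 (adjusted p = 0.917).

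The tested miRNAs whose pattern lay closest to each of the 7 were named by the root mean square (RMS) difference of centred log2 CPM over the 16 libraries, among 359 names of at least 10 CPM. All these libraries share their group and depth, so the values are a description only. For miR-137-3p they were miR-23b-3p (0.121), miR-27b-3p (0.159) and miR-181d-5p (0.172), beside a median of 0.463 over all names compared. For miR-138-5p they were miR-24-3p (0.108), miR-744-5p (0.160) and miR-1839-5p (0.168), beside 0.501. The miR-138 3p arms had no neighbour in common among the 3 named for each, and how often other pairs share one was not counted. MiR-138-1-3p lay nearest to miR-342-3p (0.211), miR-361-5p (0.236) and miR-181d-5p (0.246), beside 0.565, and miR-138-2-3p to miR-212-5p (0.224), miR-330-5p (0.250) and miR-409-3p (0.255), beside 0.724.

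The arms of miR-153 had no common neighbour among the 3 named for each either. MiR-153-3p lay nearest to miR-181c-5p (0.327), miR-130a-3p (0.329) and the neuronal miR-124-3p (0.348), beside a median of 0.567, and had the least close neighbours of the 7 by this RMS difference. MiR-153-5p lay nearest to miR-148b-3p (0.182), miR-185-5p (0.200) and miR-186-5p (0.209), beside 0.459. For miR-218-5p they were miR-434-3p (0.150), miR-434-5p (0.152) and miR-674-3p (0.159), beside 0.478.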

How the data were processed

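Small RNA was sequenced from 16 libraries, made per the labels' protocols from 100 ng of total RNA with 15 PCR cycles and size selection. The authors deposited raw counts per mature miRNA. The submitters' processing notes name bcl2fastq 2.20.0.422, Trim Galore 0.6.0, cutadapt 1.15, Bowtie 1.1.1, edgeR and the build GRCm38.p6, without their roles.

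The 7 miRNAs, the lists and the markers were chosen with earlier results of these data known. Levels are CPM of the TMM-scaled total of tested miRNAs. One model over all 16 libraries was fitted with edgeR 4.0.16 in R 4.3.3 (filterByExpr, TMM, robust quasi-likelihood F test), with Benjamini-Hochberg adjustment over 483 miRNAs in each of 6 comparisons and a threshold of 0.05. Of 1978 names, 611 were at 0 in all libraries. A standard error is the fold change divided by the root of F. Arm ratios had 0.5 counts added to each arm and exact permutation tests adjusted over 30, then limma 3.58.1. The scripts were tested on simulated counts. Named were all 7, the other arms of their precursors, the 3 nearest in pattern, the 2 most abundant of the neuronal list, and markers as sums. Alternatives were scaling, DESeq2 1.42.0, filters, thinning by a single random draw, leaving out miR-128-3p, single libraries, and a replicate block.

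Labels give replicate numbers 1 to 4 in each group and do not say what they share. Over 360 miRNAs of at least 10 CPM, same-numbered libraries deviated together in all 4 pairs for shRNA with Empty_Vector (correlations 0.111 to 0.282) and for shRNA_2bp with shRNA (0.166 to 0.198), which counts as pairing here at a threshold of 0.1. No call on the 7 changed with the block.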

Additional observations from a re-analysis of the deposited data

Results flagged for a closer look

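In 48 sets of 4 libraries, 1 value for each miRNA or ratio in each group, the gap of the extreme library to the rest was compared with the spread of its group. Chance alone marks about 1 in 20 such sets, and 3 of 48 stood out. The highest Empty_Vector library of miR-137-3p, replicate 1, held 174.49 CPM, away from the other 3 at 140 to 146 CPM. The lowest Empty_Vector library of miR-153-5p, replicate 3, held 29.923 CPM, away from the other 3 at 36.5 to 37.2 CPM. The log2 ratio of miR-137-5p to miR-137-3p was lowest in shRNA_2bp replicate 3, at -1.1253.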

How the results depend on the processing

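Of the 21 changes called among the 7 miRNAs over 6 comparisons, 10 were called under all 24 alternatives: miR-138-5p and miR-138-2-3p with shRNA_2bp relative to Empty_Vector and shRNA and with shRNA_5bp relative to shRNA_2bp, miR-137-3p with shRNA_5bp relative to Empty_Vector and shRNA, and miR-138-1-3p and miR-218-5p with shRNA_5bp relative to Empty_Vector. With thinned counts 110 of 373 tested miRNAs changed with shRNA relative to Empty_Vector, against 168 of 483 as reported, and 1 of the 7 did. With shRNA_5bp relative to Empty_Vector 3 of the 7 changed with thinned counts, beside 226 of 373 tested miRNAs. With shRNA_5bp relative to shRNA_2bp, 3 of the 7 changed with no filter on low counts, beside 262 of 1367 tested miRNAs. With only the 2 groups in the fit 3 changed, beside 250 of 399 tested. On leaving out single libraries, 1 to 2 of the 7 changed with shRNA, 2 to 5 with shRNA_2bp and 3 to 5 with shRNA_5bp relative to Empty_Vector, and 3 to 5 with shRNA_5bp relative to shRNA_2bp. Over all 495 to 501 miRNAs tested there, 145 to 176, 290 to 318, 261 to 282 and 262 to 289 changed. The share of changed miRNAs that were higher was 77.2% (shRNA), 61.9% (shRNA_2bp) and 72.7% (shRNA_5bp relative to Empty_Vector) with library-size scaling, against 56.5%, 50.8% and 54.1% with TMM, and 38.2% for shRNA_2bp and 38.2% for shRNA_5bp with no filter on low counts. It was 41.8% for shRNA with thinned counts, 33.7% for shRNA_5bp relative to shRNA with no filter, against 53.5%, and 49.6% for shRNA_5bp relative to shRNA_2bp with only the 2 groups in the fit, against 61.8%.

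The values that turned their sign had not passed the test, except miR-138-5p with shRNA_5bp relative to Empty_Vector. For shRNA relative to Empty_Vector, library-size scaling gave miR-138-2-3p 0.10, miR-153-5p 0.055 and miR-137-5p 0.032, and thinning gave miR-138-5p -0.085, miR-138-2-3p 0.21 and miR-137-5p 0.045. For shRNA_5bp relative to Empty_Vector, miR-138-5p was -0.014 with no filter, miR-153-5p 0.021 with library-size scaling, and miR-137-5p -0.031 with DESeq2, -0.21 with no filter, -0.061 with only the 2 groups and -0.00124 without miR-128-3p. For shRNA_2bp relative to shRNA, miR-218-5p was -0.074 with no filter and -0.000317 over miRNAs of at least 10 CPM. For shRNA_5bp relative to shRNA with no filter, miR-138-5p was -0.16 and miR-137-5p -0.081. For shRNA_5bp relative to shRNA_2bp, miR-153-3p was -0.00796 with only the 2 groups, and miR-153-5p -0.074 with DESeq2, -0.11 with no filter, -0.14 with only the 2 groups and -0.00154 without miR-128-3p. Single libraries left out gave, for shRNA relative to Empty_Vector, miR-138-2-3p -0.10 to 0.14, miR-153-5p -0.14 to 0.014 and miR-137-5p -0.17 to 0.011. They gave miR-137-5p -0.086 to 0.042 with shRNA_5bp relative to Empty_Vector, miR-218-5p -0.065 to 0.054 with shRNA_2bp relative to shRNA, miR-138-5p -0.16 to 0.12 and miR-137-5p -0.041 to 0.19 with shRNA_5bp relative to shRNA, and miR-153-5p -0.14 to 0.15 with shRNA_5bp relative to shRNA_2bp. The median of all tested miRNAs also moved between settings. With no filter it was -0.28 for shRNA_5bp relative to Empty_Vector, against 0.06 in the main fit, and -0.28 relative to shRNA, against -0.002. For shRNA_2bp relative to shRNA it was -0.18 with no filter, against -0.01. On leaving out single libraries it lay between -0.16 and 0.0045 for shRNA_5bp relative to shRNA. The cause of these turns was not tested.

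Thinning turned the log2 ratios miR-138-1-3p to miR-138-5p (0.13), miR-138-2-3p to miR-138-5p (0.28) and miR-138-1-3p to miR-138-2-3p (-0.16) for shRNA relative to Empty_Vector, and miR-153-5p to miR-153-3p for shRNA_2bp relative to shRNA (-0.10) and shRNA_5bp relative to shRNA_2bp (0.18). Limma passed 17 of the 30 ratio differences, none of which passed the exact test after adjustment: miR-138-1-3p to miR-138-5p 0.93, 0.66, 1.01 and 0.75 (shRNA_2bp and shRNA_5bp relative to Empty_Vector, then to shRNA), miR-138-2-3p to miR-138-5p -0.94, -0.50 and -0.70 (shRNA_2bp and shRNA_5bp relative to Empty_Vector, shRNA_2bp relative to shRNA), miR-138-1-3p to miR-138-2-3p 1.87, 1.16, 1.72, 1.01 and -0.71 (the last for shRNA_5bp relative to shRNA_2bp), miR-153-5p to miR-153-3p -0.94, -0.77 and -0.82, and miR-137-5p to miR-137-3p -0.53 and -0.54. Over all 122 arm pairs 13.1% to 44.3% passed, depending on the comparison. The miR-138 ratios share their arms and the comparisons share libraries, so the 17 are not independent.

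The replicate block changed none of the 42 calls on the 7 miRNAs, and 185, 324, 294, 319, 266 and 298 miRNAs changed with it in the 6 comparisons. Outside the 2 comparisons that met the pairing threshold, the lowest same-number correlation was 0.0943 for shRNA_2bp with Empty_Vector, and -0.0615, -0.0441 and -0.0153 for shRNA_5bp with Empty_Vector, shRNA and shRNA_2bp, and in none of these 4 did every library correlate best with its own number. With 4 pairs the exact sign-flip permutation test of a ratio cannot go below p = 0.125. Counts as low as 14 limit miR-138-1-3p, miR-138-2-3p and miR-153-3p in the shallow libraries.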
